A study of Mus musculus with 4 samples.

Results

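The regulators described here are 9 genes of the early cardiac program: the GATA factors *Gata4*, *Gata5* and *Gata6*, the GATA cofactor *Zfpm2*, the NK2 factor *Nkx2-5*, the HAND factors *Hand1* and *Hand2*, and the homeobox genes *Isl1* and *Hopx*. They were grouped by family and role, and they are 9 of 21938 protein-coding genes of the GENCODE M21 annotation. Every listed ATAC peak in the body of one of these genes, or within 50 kb of one of its transcription start sites (TSSs), was counted and placed.

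ATAC-seq, in which Tn5 transposase cuts DNA that nucleosomes leave free, was performed on hearts of wild-type (WT) mouse embryos and of embryos lacking *Smyd1* (*Smyd1-KO*) at E9.5. SMYD1 is a histone methyltransferase of striated muscle. Each genotype had 2 libraries, and each library came from 40000 viable cells of 4 pooled hearts. No treatment was given, WT and *Smyd1*+/- mice came from the Jackson Laboratory, and embryos of both sexes were used. The hearts were dissociated whole and not sorted, so the lists mix cardiomyocytes with the other cells of the heart. In such bulk tissue, more cells of a type and more accessible chromatin per cell cannot be told apart.

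The processed data are 2 lists of peaks that differed at least 2-fold between the genotypes. The *Smyd1-KO*-enriched list holds 25745 peaks and the WT-enriched list 106, all of 1 width. Both libraries of a genotype were combined before the lists were made. No value below therefore has a replicate error, no test over samples was possible, and the depth of single libraries is not known from these lists. The score of a peak is its pooled and scaled tag signal in the genotype where it was higher. It is a level and not a fold difference, and the level of the same place in WT hearts is not part of the list. With no value per library, the absence of *Smyd1* itself could not be checked. Peaks of the *Smyd1-KO*-enriched list are called gained here.

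GATA4, GATA5 and GATA6 are zinc finger proteins that bind the letters GATA in DNA, and FOG2, the product of *Zfpm2*, attaches to their N-terminal zinc finger and tunes their activity. NKX2-5 binds as a homeodomain protein and HAND1 and HAND2 as basic helix-loop-helix proteins paired with an E protein. These factors regulate one another's genes in the developing heart, where GATA4, NKX2-5 and the T-box factor TBX5 act together on genes of the contractile apparatus.

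To show what the gained regions look like, the strongest gained peak near a TSS (up to 3 kb away) is given first for *Gata4*, *Gata5* and *Zfpm2*, followed by the strongest peak of *Nkx2-5*, *Hand2* and *Isl1*, which had no peak within 3 kb. The bases are the mm10 reference (GRCm38 RefSeq sequence), written 5′ to 3′ on the strand of the gene. That is the minus strand for *Gata4*, *Gata5*, *Nkx2-5* and *Isl1* and the plus strand for *Zfpm2* and *Hand2*. Capitals mark matches to 1 of 8 motifs on either strand. The motifs were AGATAA for GATA factors, TNAAGTG for NKX2-5, CATCTG for HAND with an E protein, AGGTGTGA for T-box factors, GGAATG for TEAD, GGGCGGG for SP and KLF factors, and the MEF2 and CTCF consensus. Of the *Gata5* and *Zfpm2* peaks only the bases before the TSS are shown.
Gata4 internal promoter, chr14:63245326-63245474: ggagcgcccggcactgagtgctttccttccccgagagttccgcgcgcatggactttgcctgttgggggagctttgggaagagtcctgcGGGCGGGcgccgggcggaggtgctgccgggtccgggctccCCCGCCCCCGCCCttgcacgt
Gata5 promoter, chr2:180334700-180334800: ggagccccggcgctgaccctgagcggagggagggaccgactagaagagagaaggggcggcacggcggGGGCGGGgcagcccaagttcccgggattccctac
Zfpm2 promoter, chr15:40654966-40655034: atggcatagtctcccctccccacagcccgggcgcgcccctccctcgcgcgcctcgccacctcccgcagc
Nkx2-5 upstream, chr17:26892608-26892756: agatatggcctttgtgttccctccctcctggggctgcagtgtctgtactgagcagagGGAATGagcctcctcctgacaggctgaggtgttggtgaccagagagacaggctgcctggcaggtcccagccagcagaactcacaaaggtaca
Hand2 downstream, chr8:57353694-57353842: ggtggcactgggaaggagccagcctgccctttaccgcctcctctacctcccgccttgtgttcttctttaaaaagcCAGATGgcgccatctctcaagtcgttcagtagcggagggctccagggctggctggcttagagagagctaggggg
Isl1 downstream, chr13:116297484-116297632: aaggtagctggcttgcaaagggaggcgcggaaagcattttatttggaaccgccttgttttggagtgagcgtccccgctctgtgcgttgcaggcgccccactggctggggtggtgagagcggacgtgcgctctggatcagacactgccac

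The *Gata4* peak held 3 GGGCGGG matches, of which 2 shared a single base, and the *Gata5* promoter held 1. No motif match was found in the *Isl1* peak or in the printed stretch of *Zfpm2*. The *Nkx2-5* peak held a TEAD match and the *Hand2* peak a HAND match. A match describes the letters of the sequence and is not a measured binding site.

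Peaks with the GATA letters AGATAA form the second set, shown because GATA factors are both the products of 3 of these genes and known regulators of several of the others. The set was chosen after the matches were seen. There were 6 such peaks among the 39 *Smyd1-KO*-enriched peaks of the 9 genes, and none lay within 3 kb of an annotated TSS. The sequences are again on the strand of the gene, minus for *Gata5*, *Nkx2-5*, *Hand1* and *Hopx* and plus for *Zfpm2*, with all motif matches in capitals.
Gata5 upstream, chr2:180341337-180341485: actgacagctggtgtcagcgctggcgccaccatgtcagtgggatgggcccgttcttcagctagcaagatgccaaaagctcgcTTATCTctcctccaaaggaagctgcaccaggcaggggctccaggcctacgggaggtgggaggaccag
Nkx2-5 upstream, chr17:26850767-26850915: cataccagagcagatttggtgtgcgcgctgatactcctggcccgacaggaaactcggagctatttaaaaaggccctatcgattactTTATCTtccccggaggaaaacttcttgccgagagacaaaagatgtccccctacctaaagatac
Nkx2-5 downstream, chr17:26813546-26813694: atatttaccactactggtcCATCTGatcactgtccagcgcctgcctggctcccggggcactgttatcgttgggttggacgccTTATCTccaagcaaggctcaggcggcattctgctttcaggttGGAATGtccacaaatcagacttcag
Hand1 upstream, chr11:57847531-57847679: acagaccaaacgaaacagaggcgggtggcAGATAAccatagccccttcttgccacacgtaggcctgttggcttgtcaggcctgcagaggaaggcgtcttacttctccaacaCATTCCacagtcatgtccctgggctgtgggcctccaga
Hopx upstream, chr5:77130709-77130857: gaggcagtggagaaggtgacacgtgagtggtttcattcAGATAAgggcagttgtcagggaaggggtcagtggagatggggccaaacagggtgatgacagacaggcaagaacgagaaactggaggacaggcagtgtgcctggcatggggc
Zfpm2 intron, chr15:40979688-40979836: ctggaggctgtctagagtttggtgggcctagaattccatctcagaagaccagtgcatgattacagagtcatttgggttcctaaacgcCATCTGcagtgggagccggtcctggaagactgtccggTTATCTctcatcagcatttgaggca

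Beside the GATA match, the downstream *Nkx2-5* peak held a HAND and a TEAD match, the *Hand1* peak a TEAD match, and the *Zfpm2* intron peak a HAND match. The *Hopx* peak, the upstream *Gata5* peak and the *Nkx2-5* peak nearest to its promoter held the GATA letters alone.

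Chromatin at these genes was listed as gained in *Smyd1-KO* hearts and not as lost. The 9 genes held 39 *Smyd1-KO*-enriched peaks, which is 0.151% of the list, and 0 WT-enriched peaks. All 9 genes had at least 1 *Smyd1-KO*-enriched peak in the window, against 79.2% of all protein-coding genes (17364 of 21938). A WT-enriched peak lay in the window of 0.415% of all protein-coding genes, so that 0 of 9 is close to that background. The nearest WT-enriched peak was 0.368 Mb from a TSS of *Gata6* and 0.834 Mb from one of *Zfpm2*, and at least 2.32 Mb from the other genes. No peak was shared by 2 of the 9 genes.

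Gained peaks were found within 3 kb of a TSS in 5 of 9 genes (55.6%), against 51.2% of all protein-coding genes (11236). These were *Gata4*, *Gata5*, *Gata6*, *Zfpm2* and *Hand1*. In all except *Hand1* a peak covered a TSS, which makes 4 of 9 (44.4%) against 27.8% of all protein-coding genes (6102). The share within 3 kb was thus near the background. *Nkx2-5*, *Hand2*, *Isl1* and *Hopx* had their nearest peaks at 5758, 7989, 5719 and 5752 bp from a TSS.

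**Figure D1:**
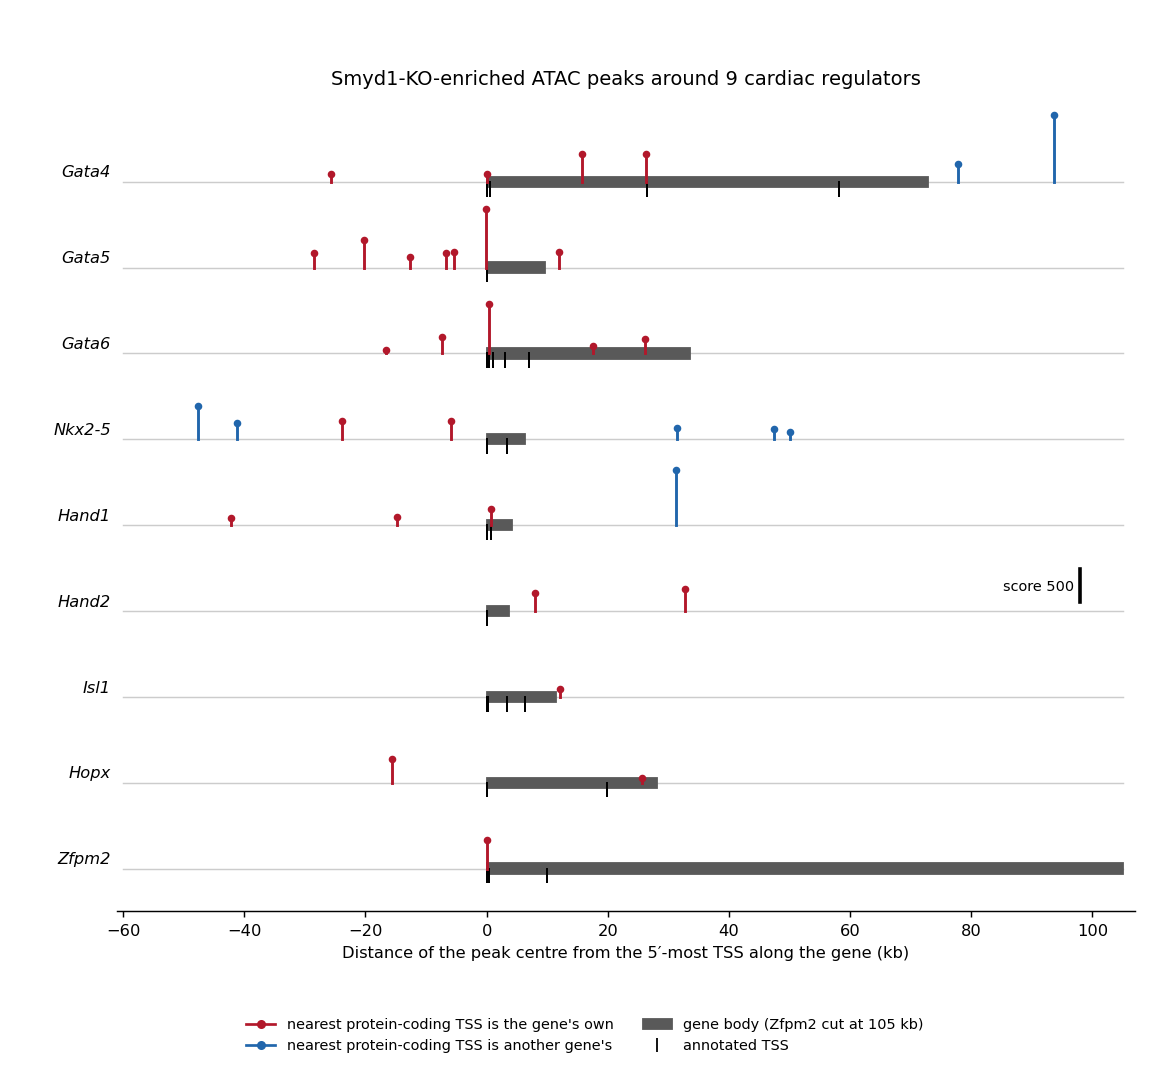
*Smyd1-KO*-enriched peaks around the 9 genes, with the distance of each peak centre from the 5′-most TSS along the gene in kb on the horizontal axis and the height of each line giving the score (scale bar, score 500). Red lines are peaks whose nearest protein-coding TSS belongs to the gene and blue lines are peaks nearer to another protein-coding gene; the *Zfpm2* body runs past the axis and 4 of its intron peaks are not drawn. Peaks cover a TSS of *Gata4*, *Gata5*, *Gata6* and *Zfpm2*, while *Nkx2-5* is flanked by peaks and has none in its body.

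*Gata4*, which is required for heart tube formation, had 6 peaks with scores from 117 to 1004.5. The gene lies on the minus strand of chr14:63198922-63271692 and has start sites at both its distal and its internal promoter. The peak at the internal promoter (chr14:63245326-63245474) lay 55 bp upstream of the TSS at 63245271 and scored 425. This TSS belongs to a transcript of the GENCODE basic set, whereas the 5′-most TSS at 63271692 does not. The peak covering that 5′-most TSS (chr14:63271573-63271721) scored 117, above only 4.11% of the listed peaks that cover a TSS. Between both promoters, an intron peak at chr14:63255927-63256075 scored 424.5, nearly the same as the internal promoter.

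The other *Gata4* peaks were less clearly its own. The highest score in the window, 1004.5, belonged to a peak at chr14:63177909-63178057 that lay 112 bp from a TSS of *Fdft1*, which encodes squalene synthase, and 35.5 kb from the nearest *Gata4* TSS. Another, at chr14:63193786-63193934 with a score of 273, covered a TSS of the DNA glycosylase gene *Neil2*. A peak 25.6 kb upstream scored 120 and was nearer to the RNA gene *Gm49390*. Only 4 of the 6 peaks had a *Gata4* TSS as their nearest protein-coding TSS.

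*Gata5*, which acts in endocardial cells, had 7 peaks in a window of 100.0 kb, a density above that of 97.2% of protein-coding genes. The gene occupies chr2:180325133-180334699 on the minus strand with a single annotated TSS. The peak covering that TSS (chr2:180334652-180334800) scored 886.5, the highest of any peak within 3 kb of a TSS in the 9 genes. It exceeded 92.3% of listed peaks that cover a TSS. From there, 5 peaks followed upstream at 5.24, 6.64, 12.5, 20.1 and 28.5 kb, and their scores were 228, 217, 160, 417 and 223. The strongest of them (chr2:180354837-180354985) exceeded 97.2% of the peaks that lie 3 to 50 kb from any TSS, and the one 12.5 kb upstream held a CTCF match. The first of the 5 lay at chr2:180339939-180340087. A single downstream peak at 11.8 kb (chr2:180322704-180322852) scored 242 and was nearer to the antisense RNA gene *Gata5os*, as the farthest upstream peak was to *B230312C02Rik*. All 7 peaks had *Gata5* as the nearest protein-coding gene.

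*Gata6*, a factor of the outflow tract and the endoderm, had 5 peaks that ranged from 59.5 to 746.5. The strongest, at chr18:11052383-11052531, covered start sites of *Gata6* and of the RNA gene *1010001N08Rik* on the opposite strand, so the signal there belongs to a shared promoter. Its score exceeded 84.9% of listed peaks that cover a TSS. An upstream peak at chr18:11044646-11044794 scored 254 and lay 7.27 kb from the nearest *Gata6* TSS and 2843 bp from a TSS of *1010001N08Rik*. In the introns, the peaks at chr18:11078128-11078276 and chr18:11069540-11069688 scored 217 and 114. The weakest, 16.6 kb upstream, was the one peak of the 39 with a T-box match. All 5 had *Gata6* as the nearest protein-coding gene, as at *Gata5*.

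*Zfpm2* encodes FOG2 and spans 450 kb, by far the longest of the 9 genes (chr15:40655035-41104592, plus strand). Its promoter peak (chr15:40654966-40655114) covered the TSS and scored 427.5, close to the median of 430 over the 6527 listed peaks that cover a TSS. The other 4 peaks lay in introns, 96.7, 160, 315 and 411 kb from the nearest *Zfpm2* TSS. Their scores of 54, 75, 62 and 38 were among the lowest of the 39 peaks. The 3 higher ones lay at chr15:40761670-40761818, chr15:40825272-40825420 and chr15:40979688-40979836. The locus had 1.0 peak per 100 kb, fewer than the median gene. The unclassified gene models *Gm49525* and *Gm49524* were nearer to 3 of the 4. The last of the 4, with a MEF2 match, lay nearer to a TSS of *Oxr1* than to that of *Zfpm2*, although it was inside the *Zfpm2* body.

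*Nkx2-5*, an early homeobox marker of cardiac progenitors, had 7 peaks and none in its body or within 3 kb of a TSS. It lies at chr17:26838664-26845009 on the minus strand. The nearest peak was 5.76 kb upstream of the 5′-most TSS (chr17:26850767-26850915), with a score of 280 and a GATA match. That distance grew to 9202 bp when counted from the TSS of the basic transcript at 26841565. The next peak upstream, at 23.9 kb (chr17:26868877-26869025), scored 275 and was nearer to the RNA gene *Gm20468*. They exceeded 92.2% and 91.8% of the listed peaks that lie 3 to 50 kb from any TSS.

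Farther out, the strongest *Nkx2-5* peak (chr17:26892608-26892756, score 495.5) lay 47.6 kb upstream, just inside the window. It was 6406 bp from the RNA gene *Gm17382*, and its nearest protein-coding TSS was that of *Kifc5b*. A peak with a score of 252.5, at chr17:26886189-26886337, covered the *Gm17382* TSS. On the other side of the gene, 3 peaks at 27.9, 44.0 and 46.6 kb scored 168.5, 153 and 116, and all 3 were nearer to *Bnip1*. So 5 of the 7 peaks were nearer to another protein-coding gene, and only the upstream pair at 5.76 and 23.9 kb was nearest to *Nkx2-5*. Its density of 6.77 peaks per 100 kb, above that of 96.1% of genes, rests in large part on peaks that other genes could claim.

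*Hand1*, a factor of the outer curvature of the left ventricle, had 4 peaks. The gene is at chr11:57828705-57832818 on the minus strand with start sites at 57832818 and 57832147. Its promoter peak (chr11:57831998-57832146) lay 1 bp inside the second TSS, in annotated 5′ UTR, and scored 243.5, the lowest best promoter peak of the 5 genes that had one. Upstream peaks at 14.7 kb (chr11:57847531-57847679), with a GATA match, and at 42.2 kb (chr11:57875011-57875159), with the only NKX2-5 match of the 39, scored 128 and 109, and the latter was nearer to the pseudogene *Gm12244*. The highest score in the window, 829.5, was that of a peak at chr11:57801483-57801631. This peak lay 6 bp from a TSS of *Sap30l* and 30.5 kb from the nearest *Hand1* TSS.

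*Hand2*, which acts in the right ventricle and the second heart field, had only 2 peaks, both downstream of the gene (chr8:57320983-57324633, plus strand). They lay 7.99 and 32.7 kb from its single TSS and scored 265.5 and 326.5. The nearer one (chr8:57328972-57329120) was 2998 bp from the RNA gene *5033428I22Rik*. The farther one (chr8:57353694-57353842), with a HAND match, exceeded 94.6% of the peaks 3 to 50 kb from any TSS. None of the peaks in the 50 kb window lay upstream of *Hand2*.

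*Isl1*, the LIM homeobox marker of second heart field progenitors, had the fewest peaks. Its 1 peak (chr13:116297484-116297632) lay just past the 3′ end of the gene (chr13:116298281-116309689, minus strand), 5719 bp from an internal TSS and 12057 bp from the 5′-most one. It scored 114, above 36.3% of the whole list and 61.6% of the peaks 3 to 50 kb from any TSS. A density of 0.94 per 100 kb placed *Isl1* above 30.3% of protein-coding genes, the lowest of the 9.

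*Hopx* encodes a homeodomain protein that does not bind DNA and acts with the cardiac factors, and it had 2 peaks (chr5:77086988-77115121, minus strand). The upstream one (chr5:77130709-77130857) lay 15.6 kb from the TSS, scored 363.5 and held a GATA match. It was nearer to the RNA gene *Gm15831*, 8361 bp away, and exceeded 95.7% of the peaks 3 to 50 kb from any TSS. The intron peak at chr5:77089353-77089501 scored 74.5 and lay closer to the antisense RNA gene *Hopxos* (5031 bp) than to a *Hopx* TSS. Peaks carry no strand, so a peak beside *Hopxos* or *Gata5os* cannot be given to either strand.

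**Figure D2:**
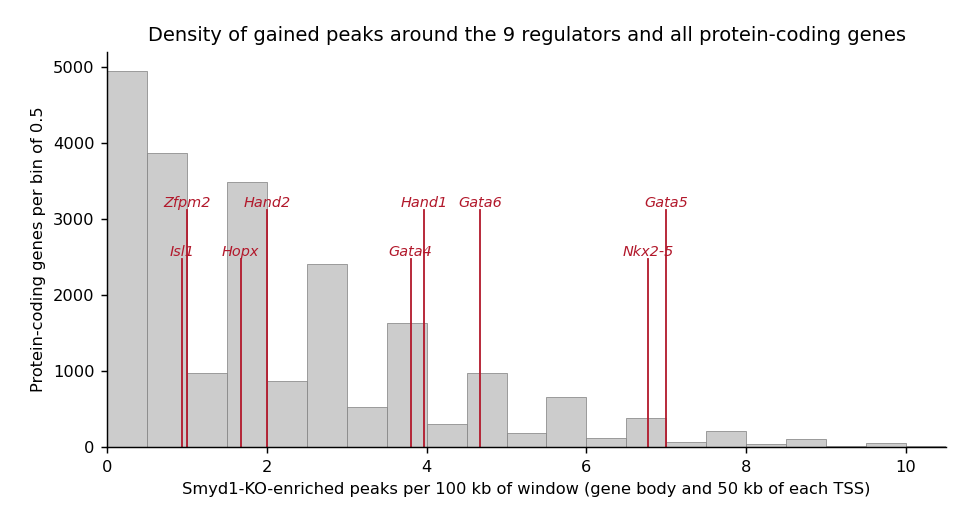
Number of protein-coding genes (vertical axis) by the number of *Smyd1-KO*-enriched peaks per 100 kb of window (horizontal axis), with the 9 genes marked in red; 54 genes beyond the axis are not drawn. *Gata5* and *Nkx2-5* stand at 7.0 and 6.77, *Isl1* and *Zfpm2* at 0.94 and 1.0, on either side of the median of 1.82 over all genes.

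The 9 genes differed widely in the number of gained peaks, and their median was above that of all genes. It was 5 *Smyd1-KO*-enriched peaks per gene (1 to 7), against 2 over all protein-coding genes (quartiles 1 and 4). The median density was 3.80 per 100 kb against 1.82 (quartiles 0.707 and 3.0). Window lengths had a median of 106.3 kb against 104 kb, but that of *Gata4* was 158.1 kb and that of *Zfpm2* 499.6 kb, against an upper quartile of 126 kb over all genes. *Zfpm2* accordingly stood above 84.5% of genes by its count of peaks and above 40.2% by density. *Gata4*, *Gata5*, *Gata6*, *Nkx2-5* and *Hand1* lay above 80.2% to 97.2% of genes in density, *Hand2* above 59.1%, *Hopx* above 47.1% and *Isl1* above 30.3%. Among 12 related lists of genes, the median density ran from 0.953 in the other NK2 genes to 4.37 in the cardiomyocyte target genes, which was above that of the 9. It was 3.45 in erythroid markers, 2.94 in epicardial markers and 2.92 in partner factors of the cardiac network. The strongest peak in the window was no higher than at other genes, with a median score of 495.5 against 535 over the genes with a peak. At *Gata4*, *Nkx2-5* and *Hand1* that strongest peak lay nearer to a TSS of another protein-coding gene. Within 3 kb of a TSS, the strongest peak had a median of 427.5 in 5 genes against 460 in 11236.

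Of the 39 peaks, 27 (69.2%) lay farther than 3 kb from a TSS of any gene, against 45.7% of the list. Another 6 were within 3 kb of a TSS of the gene itself, and the remaining 6 were within 3 kb of other genes' start sites alone, such as those of *Fdft1*, *Neil2*, *Sap30l* and *Gm17382*. In the gene bodies there were 14 peaks, of which 9 lay wholly in introns, and 15 were upstream and 10 downstream. The nearest protein-coding TSS belonged to the gene itself for 30 peaks and to another gene for 9. When genes of every type were counted, 17 peaks had the gene itself as their nearest gene. Of the 39 peaks, 26 were in the window of no other protein-coding gene, and the most shared one was in the windows of 5.

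To compare like with like, scores were set beside peaks at the same distance from any TSS. Of the 9 genes' peaks, 24 (61.5%) lay 3 to 50 kb from the nearest TSS of any gene, against 38.7% of the list. Their median score was 192.75 (59.5 to 495.5), and that of the 9969 listed peaks in this class was 92 (quartiles 60 and 153). The score was above 92 in 21 of 24. The 3 below were the *Gata6* peak 16.6 kb upstream, the *Hopx* intron peak and 1 *Zfpm2* intron peak. The following values were added after seeing the data. With each gene left out in turn, the median stayed between 140.5 (without *Gata5*) and 217, and it was 217 over the 20 peaks nearest to the gene itself. Within narrower bands, the medians were 217 against 102.5 at 3 to 10 kb (11 peaks) and 168.5 against 86.5 at 10 to 50 kb (13 peaks). The base composition of the 24 differed little from the class, with a median GC content of 55.0% against 52.3%.

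Nearer to start sites, the direction differed between the classes. The 6 peaks covering a TSS of any gene had a median of 350.25 against 430 in the list, and 2 of them were above 430. The 6 peaks up to 3 kb from a TSS had a median of 345.25 against 289, with 3 above. Beyond 50 kb, the 3 *Zfpm2* intron peaks had a median of 54 against 67.5. Over all distances, the median score was 228 (quartiles 116.5 and 345) against 180.5 (quartiles 81 and 410), and 23 of 39 (59.0%) were at or above 180.5.

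**Figure D3:**
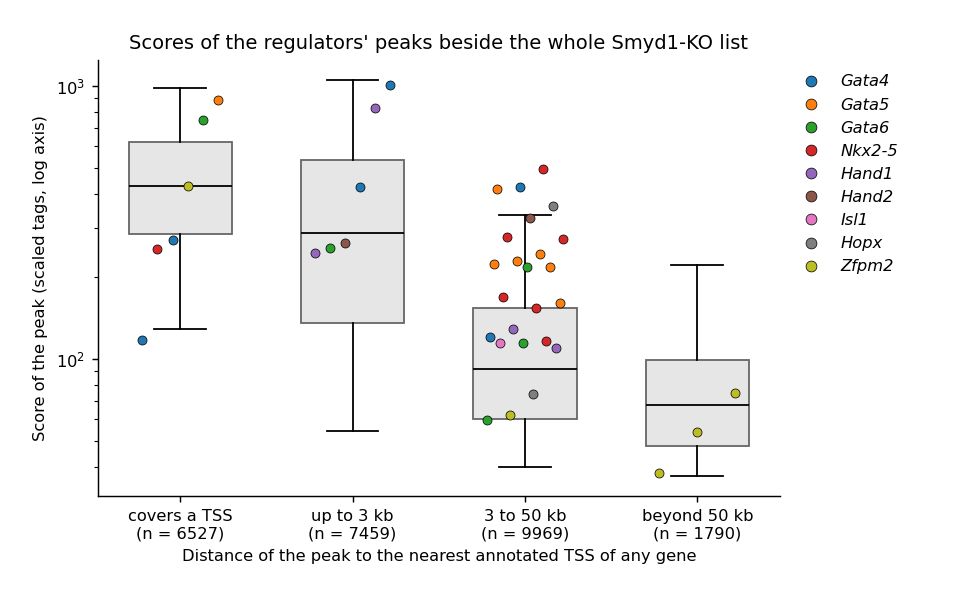
Scores (log axis) of the 39 peaks, as points coloured by gene, beside the whole *Smyd1-KO*-enriched list, as boxes with the median, quartiles and whiskers at the 5th and 95th percentiles, split by distance to the nearest annotated TSS of any gene. In the 3 to 50 kb class 21 of 24 points lie above the list median of 92, and among peaks covering a TSS 2 of 6 lie above the list median of 430.

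The GATA letters were the motif whose share in these peaks most exceeded that of the list in percentage points. AGATAA was found in 6 of 39 peaks (15.4%, exact Clopper-Pearson 95% interval 5.86% to 30.5%, for counting error only), in 8.87% of all listed peaks, and in 8.15% of windows of the same width placed 1 kb to either side of them. Around the 39 peaks themselves, 8 of 78 such windows (10.3%) matched. The interval includes the share of the list. Among peaks farther than 3 kb from any TSS, 6 of 27 (22.2%) matched at the 9 genes and 15.0% of 11759 in the list. In 300 bp about the peak centre, 13 of 39 (33.3%, interval 19.1% to 50.2%) matched against 15.1% of the list, and beyond 3 kb from any TSS 12 of 27 (44.4%) against 25.2%. The restriction to peaks beyond 3 kb was chosen after seeing the data.

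The HAND letters were found in 4 peaks (10.3%, interval 2.87% to 24.2%) against 9.33% of the list, 10.8% of the windows 1 kb beside all listed peaks and 7.69% of those beside these 39, at *Hand2*, *Nkx2-5* and, in 2 introns, *Zfpm2*. In 300 bp, 9 of 39 (23.1%, interval 11.1% to 39.3%) matched against 17.6%, and beyond 3 kb from any TSS 9 of 27 (33.3%) against 24.3%. Both intervals include the share of the list. The other motifs were below the share of the list in the deposited interval or rested on 1 peak. NKX2-5 letters were in 1 peak (2.56% against 6.76%), TEAD letters in 3 (7.69% against 10.6%) and T-box letters in 1 (2.56% against 0.435%). MEF2 and CTCF matches were in 1 peak each, 2.56%, against 1.76% and 4.34%. GGGCGGG was in 5 peaks (12.8% against 19.1%), all of them among the 12 peaks up to 3 kb from a TSS of any gene. Within that class the direction was the opposite, since 5 of 12 is above the 31.4% of listed peaks that held it there.

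**Figure D4:**
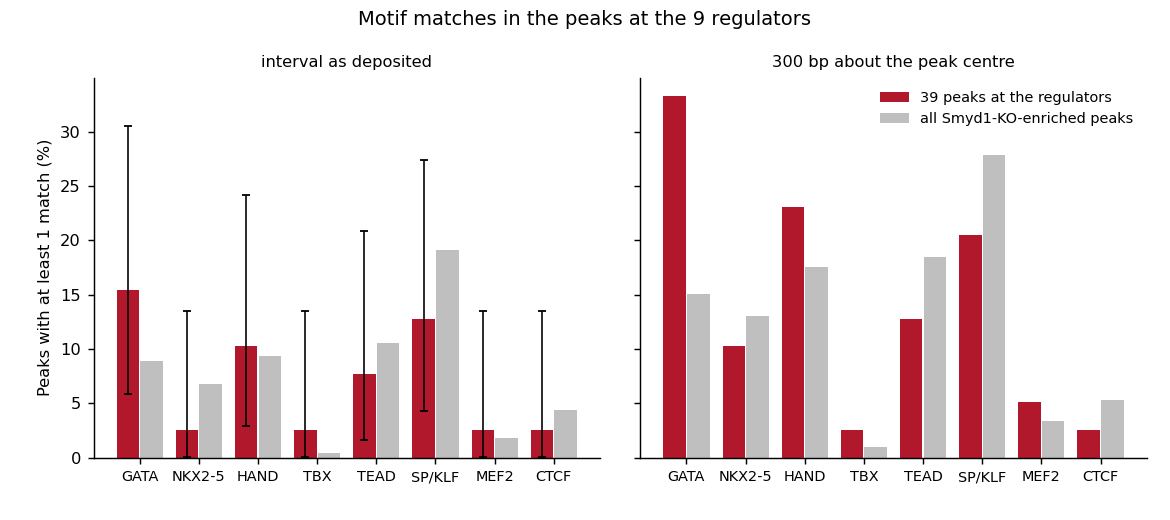
Share of peaks with at least 1 match to each of 8 motifs, in percent, for the 39 peaks at the 9 genes (red) and all *Smyd1-KO*-enriched peaks (grey), in the deposited interval (left, bars show exact 95% intervals) and in 300 bp about the centre (right). The GATA share is 15.4% against 8.87% on the left and 33.3% against 15.1% on the right. The sets are not matched for distance, as 69.2% of the 39 peaks and 45.7% of the list lie beyond 3 kb from any TSS. In the deposited interval AGATAA is in 15.0% of listed peaks beyond 3 kb and in 3.68% of nearer ones.

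Among the 9 genes, promoters with and without a nearby peak overlapped in CpG content. In the window from 250 bp before to 50 bp after a TSS, the CpG observed-to-expected ratio had a median of 0.743 over protein-coding genes with a peak within 3 kb and 0.254 over those without. *Isl1* (1.06 at the 5′-most TSS) and *Hand2* (0.897) were above 95.9% and 84.2% of genes and yet had no peak within 3 kb. *Nkx2-5* had 0.479 at its 5′-most TSS and 0.466 at the basic one, and *Hopx* 0.386 and 0.796. Among the promoters with a peak, *Zfpm2* had 0.906, the internal *Gata4* promoter 0.847 and *Gata5* 0.679, while the 5′-most *Gata4* promoter, with the weak peak, had 0.421. The *Gata6* start sites covered by its peak had 0.467 and 0.502, and the *Hand1* start site nearest to its peak had 0.306. At the 5′-most start sites of *Gata6* and *Hand1* the ratio was 0.556 and 0.56, and it reached 0.92 at another *Gata6* start site.

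Relatives of the 9 genes were counted in the same way. In the list of other GATA and FOG genes, 4 of 6 had a peak within 3 kb of a TSS, led by *Zfpm1*, which encodes FOG1 (score 1206), and *Gata3* (799). The rest of the 4 were *Gatad1* (697) and *Trps1* (245.5), which are more distant relatives and not GATA or FOG genes by name. *Gata1* and *Gata2* had none within 3 kb, and *Gata2* had none in its window. Of the other NK2 genes, 0 of 6 had a peak within 3 kb, and *Nkx2-4* and *Nkx2-9* had none in the window, so *Nkx2-5* was not alone in its family in lacking a promoter peak. E protein and Twist genes, the partners and relatives of HAND, had one in 4 of 5, with *Tcf3* (612) and *Tcf4* (582.5) the highest and *Tcf12* without any.

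Among the relatives and cofactors of ISL1, 4 of 4 had a peak within 3 kb, where *Isl1* had none, with *Lmo4* (664) and *Isl2* (626) the highest. Factors that act with the 9 had one in 8 of 10, led by *Tbx3* (1055) and *Srf* (1049). The exceptions, *Tbx5* and *Tbx20*, had peaks in the window alone, with a highest score of 171.5 and 44. Genes of signals upstream of these factors had one in 5 of 8, with *Wnt11* (440) and *Bmp2* (359) the highest. *Bmp10*, a ligand of trabecular myocardium, was the only gene of these lists with a WT-enriched peak in its window.

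Genes activated by these factors in cardiomyocytes, which also serve as cardiomyocyte markers, had a peak within 3 kb in 14 of 14, with *Myl4* (700.5) and *Actc1* (619.5) the highest. Endothelial and endocardial markers had one in 2 of 8, *Nfatc1* (165.5) and *Tek* (79.5). Erythroid markers had one in 1 of 8, *Klf1* (677.5), and *Hbb-bh1* had no peak in its window. The epicardial list had 3 of 5, with *Tbx18* (338.5) and *Wt1* (221.5) the highest and *Tcf21* without a peak. The neural crest list had 2 of 5, *Ets1* (882.5) and *Tfap2a* (157.5), with *Sox10* and *Tfap2b* without a peak. The endoderm and liver list had 2 of 6, *Foxa2* (196.5) and *Sox17* (178), with *Afp* and *Alb* without a peak. *Sox17* does not mark endoderm alone, since the authors describe a need for it in the endocardium. Several of the 9 genes are used in more than one of these cell types, *Gata4* and *Gata6* in endoderm and epicardium and *Hand1* and *Hand2* in neural crest or mesoderm outside the heart, and the part of each cell type in the counts was not tested.

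**Figure D5:**
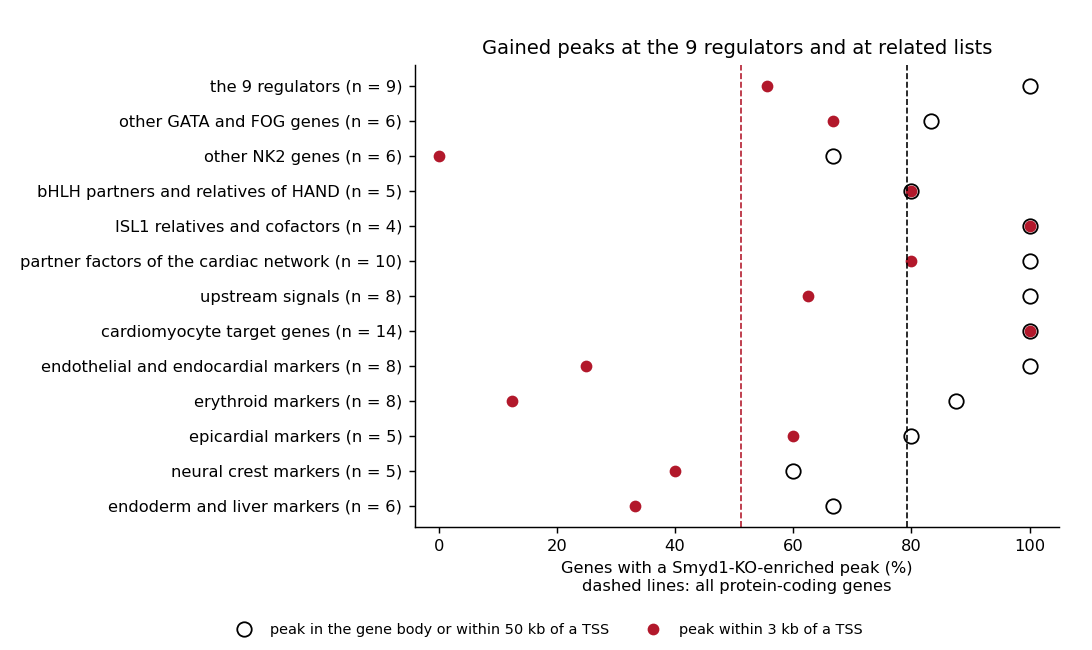
Share of genes with a gained peak up to 3 kb from a TSS (red points) and in the gene body or within 50 kb of a TSS (open circles), in percent, for the 9 genes and 12 related lists, with the number of genes in brackets. Dashed lines give all protein-coding genes, 51.2% (red) and 79.2% (black); the 9 genes stand at 55.6% and 100.0%, the cardiomyocyte genes at 100.0% for both and the other NK2 genes at 0.0% within 3 kb.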

How the data were processed

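ATAC-seq libraries from *Smyd1-KO* and WT hearts at E9.5, 2 per genotype, were aligned by the authors to mm10 with BWA-MEM. Peaks were called with HOMER v4.10.3, and ChIPseeker v1.20.0 was used for annotation. The deposited peak lists hold a signal for each peak, the authors' pooled and scaled tags, with a 2-fold change as the threshold for a differential peak. How the signal was scaled, and how duplicates, multi-mapping reads, the Tn5 offset and artifact regions were treated, is not given in the sources used here, and each could change which peaks are listed. Scores were not compared across the lists.

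Peaks were placed on GENCODE M21 in Python 3.11.15 with pandas 2.3.3, numpy 2.4.6 and scipy 1.17.1. Distances ran from the nearer peak edge to any annotated TSS, and were 0 where a peak covered it. Percentiles are mid-ranks among listed peaks or genes, in which equal values count in part as lower. Statements of lying above or exceeding a percentage of peaks or genes use these mid-ranks. Coordinates count from 1. The genes, gene lists and motifs were chosen with earlier results of these data known. For each gene, peaks within 3 kb of a TSS and the 3 highest elsewhere were given with position and score, and in each list the 2 genes with the highest score within 3 kb. No test was run. The placement and motif search were tested on simulated data. Alternatives changed the window, the transcript set, the peaks counted and the motif interval.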

Additional observations from a re-analysis of the deposited data

How the results depend on the processing

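The count of 39 *Smyd1-KO*-enriched peaks depended on the window and the peaks counted. It was 20 with 10 kb around each TSS, 62 with 100 kb, 14 in the gene bodies alone and 23 among peaks at or above the list's median score. The GATA share of 15.4% became 33.3% in 300 bp intervals and, in an alternative chosen after seeing the data, 44.4% in 300 bp intervals farther than 3 kb from any TSS. Under the other 37 alternatives, counts stayed within 1.5 times the first value and shares inside their 95% interval. Among these, the basic transcripts gave 37 peaks, nearest-gene assignment 30, and merging of near peaks, centre distances and the removal of repeat-rich peaks 39 each. Genes with a peak numbered 6 in gene bodies alone, which left out *Nkx2-5*, *Hand2* and *Isl1*, and 8 above the median score, which left out *Isl1*. The count of 5 genes with a peak within 3 kb and the count of 0 WT-enriched peaks were the same in every alternative run, and the former has no value for other windows. Ranked within the distance class and not the whole list, the strongest peak of each gene moved in percentile for all 9, from 67.5 to 94.6 at *Hand2*, 36.3 to 61.6 at *Isl1*, 70.9 to 95.7 at *Hopx*, 81.2 to 98.2 at *Nkx2-5* and 76.4 to 49.6 at *Zfpm2*, and by less at the GATA genes and *Hand1*. Of these strongest peaks, those of *Gata4*, *Nkx2-5* and *Hand1* lay nearer to a TSS of another protein-coding gene. In the wider window the density moved by over 1.5 times only at *Gata6*, from 4.67 to 2.42 per 100 kb. No paired analysis was possible because the libraries of a genotype were pooled in the lists. The unknown spread between libraries limits every count, since a peak near the 2-fold threshold could be listed or not.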

Other observations

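Just outside the windows, 23 further *Smyd1-KO*-enriched peaks lay 50 to 100 kb from a TSS of the 9 genes, 6 of them at *Gata5*, 4 each at *Gata4* and *Nkx2-5*, 3 each at *Hand1* and *Hopx*, 2 at *Hand2*, 1 at *Isl1* and none at *Gata6* or *Zfpm2*. The highest lay at start sites of other genes, with scores of 1397 at *Cables2*, 1153 at *Rps21* and 1108 at *Cuta*. One peak 50.7 kb upstream of *Gata5* (chr2:180385383-180385531) scored 774.5, lay 354 bp from a TSS of the RNA gene *B230312C02Rik*, and had *Gata5* as its nearest protein-coding gene. Peaks 83.3 kb from *Hand1* and 71.8 kb from *Hand2* also had these genes as their nearest protein-coding genes, with scores of 241 and 176.5, as did a peak 56.1 kb from *Isl1* with a score of 36.0.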
